A study of Mus musculus with 20 samples.

Results

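Gene expression after 2 h in 1 mM AICAR was compared with expression in untreated cells at 0 h. The comparison set 3 arrays of AICAR-treated cells against 3 control arrays, chosen by their titles, which is 6 of the 20 arrays of the series. It covered the 28898 of 45141 probe sets that the platform annotation gives 1 gene symbol. After 1 probe set was kept for each gene and genes with low signal were left out, 12944 genes were tested. All 6 arrays hold RNA from mouse embryonic fibroblasts immortalized with SV40, the virus whose large T antigen inactivates p53 and RB. In these cells the genes of both AMPK catalytic subunits, Ampkα1 and Ampkα2, are knocked out, so the control cells lack them as well. The treated group received AICAR for 2 h, and the control group received no agent and was taken at 0 h. Untreated cells kept for 2 h were not analysed here, so AICAR and elapsed time cannot be told apart. The labels name no clone and do not say whether the arrays of a group came from separate cultures.

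AICAR is a ribonucleoside that enters cells and is phosphorylated by adenosine kinase to ZMP, an intermediate of purine synthesis that resembles AMP. ZMP activates AMPK, the kinase that senses low cellular energy, and AICAR is widely used for that purpose. The cells used here lack both catalytic subunits, so transcript levels after AICAR were measured where AMPK is missing. In the hours after a stimulus, the transcripts that can change most are those with short lifetimes, such as immediate early genes, feedback inhibitors of signalling and inflammatory mediators.

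Signals are given as deposited on the log2 scale, and differences are AICAR 2 h minus control 0 h, with the standard error (SE) of a limma fit over all 20 arrays. A gene was called when its Benjamini-Hochberg adjusted p over the 12944 genes was below 0.05. Background is taken as 5.08, the level that 95% of the signals of the non-specific array controls do not exceed. Levels of different probe sets are not compared with each other. Array medians were 5.18 to 5.32 in the AICAR arrays and 5.18 to 5.24 in the controls. Replicate 3 of both groups stood apart, with an interquartile range of 2.79 in AICAR 2 h replicate 3 and 2.90 in control 0 h replicate 3. Replicate 3 also had the lowest range of its group at 1 h (2.89), 12 h (2.84) and 24 h (2.91), while at 4 h replicate 2 did (2.77). Correlations between arrays of a group were 0.9912 or higher, and no pair held identical values. Of 12 fibroblast markers, 10 were above background on all 6 arrays, with Vim highest at 13.2, while Thy1 and Col1a2 were not. Of 10 macrophage and 10 endothelial markers, 6 and 7 were below background on all 6 arrays, and 5 of 10 epithelial markers were above it, with Krt19 highest at 9.75. Also above it on all 6 were 3 macrophage markers (Csf1r, Tyrobp, Cd14) and 3 endothelial markers (Kdr, Egfl7, Erg). The same held for 5 of 10 skeletal muscle markers (Myod1, Myh3, Acta1, Des, Ckm) and 2 of 6 adipocyte markers (Retn, Pparg). None of the tested genes of these marker lists was called.

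The cells carry deletions in Prkaa1 and Prkaa2, which encode the catalytic subunits. Prkaa1 had a signal of 8.28 ± 0.06 in AICAR 2 h arrays and 8.19 ± 0.06 in control 0 h arrays (SD, n = 3 each), and Prkaa2 had 5.66 ± 0.20 in AICAR 2 h arrays and 5.63 ± 0.12 in controls. No array of wild-type cells was analysed here, and where the probes lie with respect to the deletions is not stated, so the values do not check the knockout. Adk, the adenosine kinase that converts AICAR to ZMP, was at 11.52 ± 0.06 in AICAR 2 h arrays and 11.54 ± 0.01 in controls. Neither gene was called, with differences of 0.09 ± 0.08 (SE) for Prkaa1 and -0.02 ± 0.06 for Adk.

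After 2 h in AICAR, 190 genes (1.47%) were called, 61 higher (0.471%) and 129 lower (0.997%). The largest rises were in Taf15, an RNA-binding protein, and in Rps15a, and the largest falls were in Chac1, which cleaves glutathione and is a target of ATF4, Fam43a and Nabp1, a single-stranded DNA-binding protein. Falls were larger than rises, with a median of -0.60 among the 129 lower genes and 0.51 among the 61 higher ones. At least 2-fold changes were seen in 3 of the higher and 18 of the lower genes. The median over all genes was 0.0043, with a positive difference in 6684 and a negative one in 6260 of the 12944. In all 190 genes the 3 AICAR arrays lay wholly above or wholly below the 3 controls, which was also the case for 17.1% of all genes tested. Because whole cultures were measured, fewer cells of a type and less RNA per cell cannot be told apart. The direction split moved with the scaling, with 21.4% of calls higher after median centring, 41.7% after quantile normalization, 48.4% with the interquartile range as a covariate and 32.1% as deposited. Without replicate 3 of both groups, an alternative chosen after the interquartile ranges were seen, 61 genes were called, of which 9 were higher and 52 lower.

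**Figure D1:**
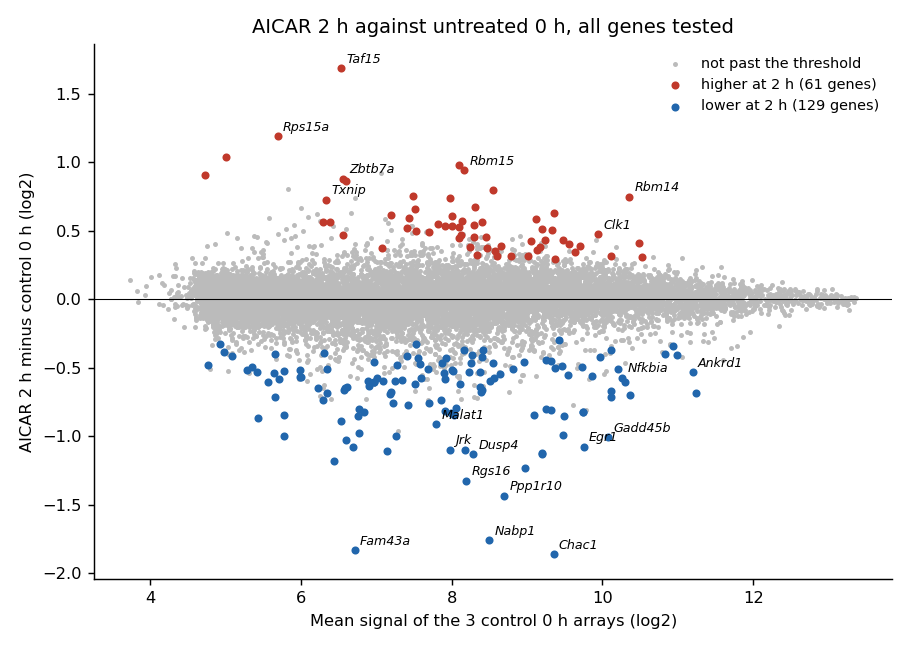
Difference between AICAR 2 h and control 0 h (vertical axis, log2) against the mean signal of the 3 control arrays (horizontal axis, log2) for the 12944 genes tested, with the 61 genes called higher in red and the 129 called lower in blue. Chac1, Fam43a and Nabp1 lie lowest, and Taf15 lies highest at 1.69.

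Among called genes above background in both groups, the largest difference was in Chac1, whose signal was 7.37, 7.61 and 7.48 in AICAR 2 h arrays, against 9.39, 9.33 and 9.33 in controls. All treated arrays lay below all controls, and the difference was -1.86 ± 0.25 (SE; limma adjusted p = 0.0008), a 3.64-fold lower level. Ddit3, which encodes the stress-response factor CHOP, another ATF4 target, had 7.12, 7.27 and 6.83 in AICAR arrays, against 8.25, 8.18 and 8.09 in controls. Its difference was -1.10 ± 0.16 (adjusted p = 0.001), 2.14-fold lower, again without overlap. Of 30 tested genes of the ATF4 and integrated stress response, 5 fell and 0 rose (16.7%, against 1.47% of all genes). For each list below the share to compare with is likewise 1.47%. The lists were chosen with earlier results of these data known, so their shares are a description and no test of the lists. Counts of signs stand beside 6684 positive and 6260 negative differences in all genes. The other members that fell were Slc7a1, a transporter of cationic amino acids (-0.51), Cebpb, a leucine zipper factor (-0.49), and Nupr1, a small stress-induced chromatin protein (-0.46). The list median was -0.06, close to that of all genes. Atf4 itself stood at -0.31 ± 0.10 (adjusted p = 0.18), Trib3, an ATF4-induced pseudokinase, at -0.08, and Asns, the asparagine synthetase, at 0.06. These 3 genes lie outside the naming rule and were chosen after their values were seen. Chac1, Ddit3 and Slc7a1 were the list members called without replicate 3 of both groups, and Slc7a1 was not past the threshold when its probe sets were averaged (-0.19).

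The Chac1 promoter is shown because it holds a match to the CARE element, TGATGNAA, which C/EBP-ATF composite sites carry. The window covers 300 bases around the gene start in RefSeq (GRCm38.p6), written 5′ to 3′ on the gene's strand, and the capitals mark the match, which lies on the opposite strand 193 bases before the start.
Chac1 promoter, chr2:119350992-119351291, plus strand: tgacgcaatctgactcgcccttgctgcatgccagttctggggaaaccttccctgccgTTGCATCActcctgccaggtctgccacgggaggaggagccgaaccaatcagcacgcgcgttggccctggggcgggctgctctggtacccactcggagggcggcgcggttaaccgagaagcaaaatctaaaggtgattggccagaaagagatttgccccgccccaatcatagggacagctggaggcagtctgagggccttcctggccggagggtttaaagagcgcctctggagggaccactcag
Such a match was found on either strand in 3.97% of 32851 promoters, in 4.95% of the 101 called lower genes that have a promoter in the table and in 0 of the 50 called higher genes, against 2.91% of the 10401 tested genes with a promoter. The match is a description of these letters only.

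Immediate early transcription factors, which are induced within minutes of growth factor stimulation, held more falls than rises. Of 24 tested, 7 fell and 1 rose (33.3%), with a median of -0.25. Fosl2, an AP-1 subunit, had 7.63, 7.75 and 7.84 in AICAR 2 h arrays, against 8.997, 8.98 and 8.93 in controls, a difference of -1.23 ± 0.14 (adjusted p = 0.0002). A further Fosl2 probe set gave 0.15 ± 0.12 and was not past the threshold. Egr1, a zinc finger factor downstream of ERK, had 8.54, 8.49 and 9.001 in AICAR arrays, against 9.68, 9.75 and 9.82 in controls, and differed by -1.08 ± 0.15 (adjusted p = 0.0008). Myc, the growth-regulating factor, had 9.39, 9.30 and 9.51 in AICAR arrays, against 10.16, 10.12 and 10.06 in controls, and fell by 0.71. For each of these genes every treated array was below every control. Ier5l, an immediate early protein, fell by 0.69. Its relative Ier5 was below background on all 3 AICAR arrays, with a mean of 4.57 against 5.43 in controls, so its level was at least 1.27-fold lower (adjusted p = 0.013). Jun (-0.42) and Ier2 (-0.55) fell as well, and Csrnp1, a serum-induced nuclear protein, rose by 0.47. Jun, Ier2 and Csrnp1 are outside the naming rule and are given to complete the list. Fos, the AP-1 partner of Jun, was at -0.28 ± 0.12 and was not called, which was noted after its value was seen. Without replicate 3 of both groups 4 members fell and 0 rose.

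Some feedback inhibitors of the ERK pathway fell as well. Of 18 tested, 5 fell and 0 rose (27.8%), with a median of -0.12. Dusp4, a nuclear phosphatase of ERK, had 6.93, 7.31 and 7.23 in AICAR 2 h arrays, against 8.44, 8.32 and 8.10 in controls. The difference of -1.13 ± 0.20 (adjusted p = 0.0055) is a 2.19-fold lower level. Dusp6, the cytoplasmic ERK phosphatase, had 8.39, 8.43 and 8.62 in AICAR arrays, against 9.52, 9.45 and 9.44 in controls, and differed by -0.99 ± 0.16 (adjusted p = 0.0038). Errfi1, an inhibitor of the EGF receptor, fell by 0.82 and Phlda1, a pleckstrin-like protein induced by growth factors, fell by 0.68, to 10.55 ± 0.04 in AICAR arrays against 11.23 ± 0.07 in controls (SD, n = 3 each). Dusp1, a phosphatase of p38, JNK and ERK, fell by 0.56, and its call was lost when any of the 6 arrays was left out. Of 13 tested ligands of the EGF, FGF, IL6 and VEGF families, Pdgfb, a PDGF chain, fell by 0.73 and 0 rose.

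Errfi1 has a full cyclic AMP response element, TGACGTCA, in its promoter, shown because the gene kept its call with each array left out. It was chosen after the values were seen. The capitals mark the element, 51 bases before the start.
Errfi1 promoter, chr4:150854820-150855119, plus strand: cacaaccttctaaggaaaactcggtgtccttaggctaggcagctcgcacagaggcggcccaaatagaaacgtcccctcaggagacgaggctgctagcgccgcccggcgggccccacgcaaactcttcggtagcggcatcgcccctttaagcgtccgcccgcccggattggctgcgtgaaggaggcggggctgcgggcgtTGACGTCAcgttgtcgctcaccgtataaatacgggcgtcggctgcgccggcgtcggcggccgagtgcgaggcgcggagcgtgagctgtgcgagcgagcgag
The element was present in 1.79% of all promoters, in 4.95% of called lower genes, in 8.0% of called higher genes and in 3.38% of tested genes. The AP-1 site TGACTCA was present in 3.96% of called lower, 4.0% of called higher and 4.79% of tested genes, and the CArG box bound by SRF in 1.98%, 0.0% and 1.59% of these sets.

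NF-kB target genes and inflammatory mediators formed the list with the most falls. Of 25 tested, 8 fell and 0 rose (32%), and 22 of the 25 had a negative difference, with a median of -0.32. Tnfaip3, which encodes the deubiquitinase A20 that restrains NF-kB, had 8.41, 8.53 and 8.59 in AICAR 2 h arrays, against 9.41, 9.31 and 9.24 in controls, a difference of -0.81 ± 0.14 (adjusted p = 0.005). Nfkbia, the NF-kB inhibitor, had 9.71, 9.75 and 9.59 in AICAR arrays, against 10.34, 10.26 and 10.17 in controls, and differed by -0.57 ± 0.13 (adjusted p = 0.026). In both genes the groups did not overlap. Ccl2, a monocyte-attracting chemokine, fell by 0.85 and the neutrophil-attracting chemokine Cxcl1 was called lower too. Cxcl1 had a mean of 4.94 in AICAR arrays against 5.65 in controls, and since only 1 of 3 AICAR arrays was above background, no exact size is drawn from the difference. Csf1, the macrophage growth factor, fell by 0.67, and Ptgs2, the inducible prostaglandin synthase, fell by 0.60. Ccl7 (-0.52) and Irf1, an interferon-regulatory factor (-0.51), completed the 8. Nfkbia, Ccl7 and Irf1 are outside the naming rule and were chosen after their values were seen. Csf1 and Ptgs2 did not pass with the mean of their probe sets (-0.23 and -0.30), and Ccl2 lost its call without AICAR 2 h replicate 1 or either of control replicates 1 and 2. Without replicate 3 of both groups 3 of the 25 fell.

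Promoters of 4 of these genes are shown because they hold a match to the kappa-B site, the sequence bound by NF-kB dimers, with the matches in capitals. Csf1 holds a match as well and is not shown. They were chosen after the values were seen. The Nfkbia match lies 29 bases and the Irf1 match 13 bases before the gene start.
Nfkbia promoter, chr12:55492598-55492897, minus strand: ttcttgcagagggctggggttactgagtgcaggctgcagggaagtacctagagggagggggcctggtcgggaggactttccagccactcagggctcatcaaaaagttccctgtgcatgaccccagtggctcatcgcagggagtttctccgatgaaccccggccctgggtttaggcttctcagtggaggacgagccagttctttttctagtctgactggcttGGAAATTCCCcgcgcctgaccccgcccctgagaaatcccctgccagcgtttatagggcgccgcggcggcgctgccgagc
Cxcl1 promoter, chr5:90890995-90891294, plus strand: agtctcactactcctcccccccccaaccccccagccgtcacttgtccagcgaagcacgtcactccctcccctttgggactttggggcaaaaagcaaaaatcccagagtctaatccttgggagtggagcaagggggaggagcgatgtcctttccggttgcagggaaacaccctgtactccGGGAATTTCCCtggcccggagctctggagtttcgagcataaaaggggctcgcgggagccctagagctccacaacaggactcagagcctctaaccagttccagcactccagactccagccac
Tnfaip3 promoter, chr10:19015361-19015660, minus strand: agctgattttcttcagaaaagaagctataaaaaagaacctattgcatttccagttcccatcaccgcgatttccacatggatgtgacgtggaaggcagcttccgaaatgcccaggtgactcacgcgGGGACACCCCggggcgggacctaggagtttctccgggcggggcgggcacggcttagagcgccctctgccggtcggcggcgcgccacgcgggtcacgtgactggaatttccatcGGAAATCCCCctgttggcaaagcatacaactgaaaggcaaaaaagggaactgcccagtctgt
Irf1 promoter, chr11:53769764-53770063, plus strand: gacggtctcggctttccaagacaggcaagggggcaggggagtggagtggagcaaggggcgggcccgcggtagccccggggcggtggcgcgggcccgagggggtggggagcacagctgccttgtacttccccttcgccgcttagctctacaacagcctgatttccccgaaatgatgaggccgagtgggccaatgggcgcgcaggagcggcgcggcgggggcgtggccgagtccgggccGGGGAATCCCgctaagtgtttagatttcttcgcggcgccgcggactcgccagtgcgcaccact
A kappa-B match was found on either strand in 4.51% of all promoters, in 7.92% of called lower, 4.0% of called higher and 6.21% of tested genes, so the called lower genes were near the share of the tested genes.

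**Figure D2:**
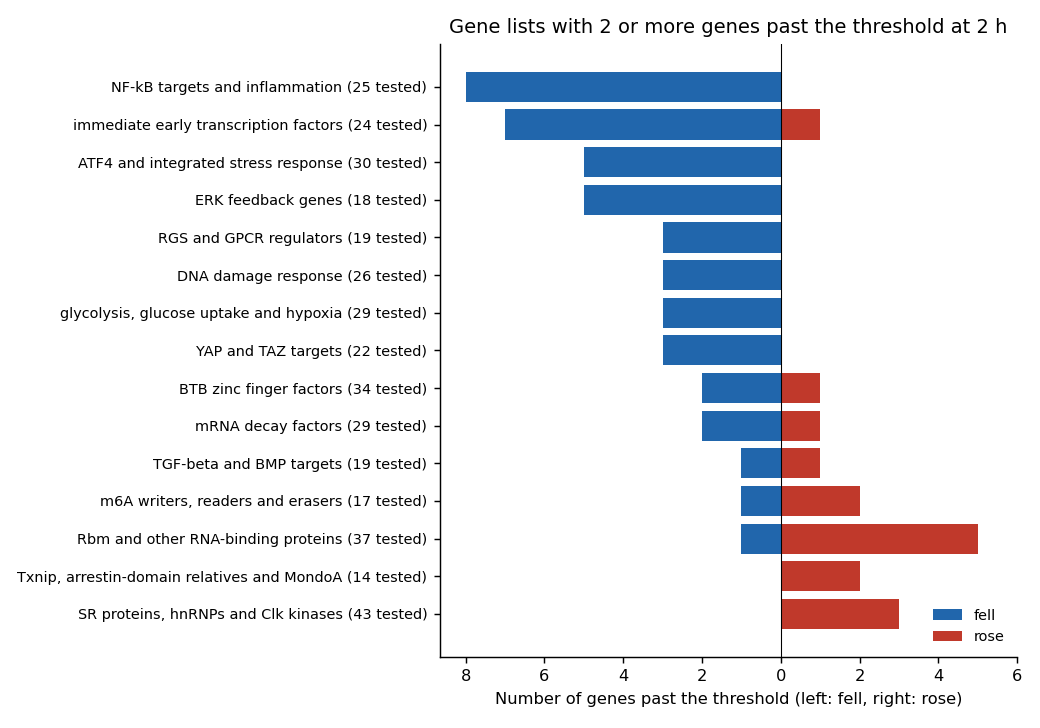
Number of genes called in gene lists with at least 2 calls (1 such list is not shown), with falls to the left in blue and rises to the right in red, and the number of genes tested in brackets. NF-kB targets (8 of 25) and immediate early factors (7 of 24) extend farthest to the left, followed by ERK feedback genes (5 of 18) and the ATF4 list (5 of 30). The Rbm and other RNA-binding proteins (5 of 37) extend farthest to the right.

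Regulators of transcription, DNA repair and G-protein signalling were also among the strongest falls. Ppp1r10, which encodes PNUTS, a nuclear targeting subunit of protein phosphatase PP1, had 7.38, 7.47 and 6.94 in AICAR 2 h arrays, against 8.81, 8.71 and 8.58 in controls. Its difference of -1.43 ± 0.16 (adjusted p = 0.0002) was matched by a further probe set at -1.78, and 0 of the other 25 tested PP1 genes were called. Hexim1, the inhibitor of the elongation kinase P-TEFb, fell by 0.80 and was the only gene called among 27 tested P-TEFb and pause release genes. Its call was lost without AICAR 2 h replicate 3, control replicate 1 or control replicate 2. Nabp1, a single-stranded DNA-binding protein of the damage response, had 6.64, 6.76 and 6.80 in AICAR arrays, against 8.62, 8.51 and 8.35 in controls. It differed by -1.76 ± 0.23 (adjusted p = 0.0008), and its other probe sets gave -1.44 and -0.84, both past the threshold. The growth arrest genes Gadd45b (-1.01) and Gadd45g (-1.13) fell with it, which makes 3 of 26 DNA damage response genes lower and 0 higher (11.5%, against 1.47% of all genes). The median of that list was 0.0099, and 15 of its 26 genes had a positive difference.

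Fam43a, a gene of little known function, had 4.81, 4.90 and 4.93 in AICAR 2 h arrays, against 6.79, 6.71 and 6.63 in controls, a measured difference of -1.83 ± 0.17 (adjusted p = 2.3e-05). All 3 treated arrays were below background, so the level was at least 3.09-fold lower, counted from the background level. Rgs16, which speeds GTP hydrolysis by Gαi and Gαq, had 6.72, 6.83 and 7.06 in AICAR arrays, against 8.33, 8.23 and 8.02 in controls, and fell by 1.32. Rgs3 fell by 0.60. Rgs2 was called lower too, with all 6 arrays below background, so no size is given. This makes 3 of 19 tested RGS and receptor regulators called (15.8%, against 1.47% of all genes), with a list median of -0.03. Jrk, a nuclear protein related to a transposase, had 6.81, 6.86 and 6.97 in AICAR arrays, against 8.02, 8.01 and 7.91 in controls, a difference of -1.10 ± 0.09 (adjusted p = 4.2e-06). Another Jrk probe set was at -0.06 and not called.

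Further falls were spread over lists with few calls. Of the YAP and TAZ targets, 3 of 22 tested were called (13.6%, against 1.47% of all genes), with a list median of -0.04. Ankrd1, a muscle-type ankyrin repeat protein, fell by 0.53, F3, tissue factor, by 0.47 and Gadd45b as above. None of the 23 tested Hippo kinases and effectors was called by its chosen probe set. Other probe sets of the Hippo kinase Lats2 were called higher when tested on their own, at 2.10 and 1.53. Ccn1 and Ccn2, the best-known YAP targets, were at -0.34 and -0.27 and were not called, values that were looked at after the results were seen. Klf2 and Klf3, zinc finger factors, fell by 0.60 and 0.82. Of the other tested Klf3 probe sets, 1 gave -1.22 and passed, while 3 gave 0.39, 0.18 and -0.05 without passing, and with the mean of all its probe sets Klf3 was at -0.23 and lost the call (adjusted p = 0.10). Of 29 glycolysis, glucose uptake and hypoxia genes 3 were called (10.3%), with a list median of -0.04. These were Pfkfb3, which makes an activator of glycolysis (-0.57), Adm, adrenomedullin (-0.65), and Ndrg1, a hypoxia-induced gene (-0.43). The AU-rich element binding proteins Zfp36l1 (-0.50) and Zfp36l2 (-0.40) fell, while Zc3h12c, a member of the Regnase family of mRNA-degrading enzymes, rose by 0.86. Bhlhe40, a circadian repressor, fell by 0.68, the p53 target Plk2 by 0.40 and the forkhead factor Foxc2 by 0.64. The repressor gene Bcl6 fell by 1.18 to a mean of 5.25 ± 0.20 in AICAR arrays against 6.43 ± 0.13 in controls (SD, n = 3 each), and a further Bcl6 probe set gave 0.04. The leucine zipper factor Cebpd fell by 1.08. Klf2, Pfkfb3, Plk2, Rgs2 and Zfp36l2 each lost the call when any of the 6 arrays was left out.

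The nuclear long non-coding RNAs Neat1 and Malat1 were both called lower. Neat1, the scaffold of paraspeckles, had 8.12, 7.91 and 8.22 in AICAR 2 h arrays, against 9.50, 9.09 and 9.01 in controls, and differed by -1.12 ± 0.25 (adjusted p = 0.027). Malat1, a nuclear speckle RNA, had 6.92, 6.74 and 6.98 in AICAR arrays, against 8.05, 7.87 and 7.46 in controls, and differed by -0.91 ± 0.16 (adjusted p = 0.0051). Malat1 was chosen after its value was seen. Of 6 tested snoRNA host genes, Snhg5 fell by 0.70 and 0 rose. Its 2 further tested probe sets gave -0.06 and -0.0035, and averaged over all 3 Snhg5 was at -0.25 and lost the call (adjusted p = 0.33). Mir22hg, the host transcript of the microRNA miR-22, rose by 0.67, from a single probe set that does not measure the mature microRNA. Neat1 lost its call without each AICAR array and without control replicates 1 and 2, whereas Mir22hg kept its call when any 1 array was left out and lost it without replicate 3 of both groups (0.53, adjusted p = 0.14).

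**Figure D3:**
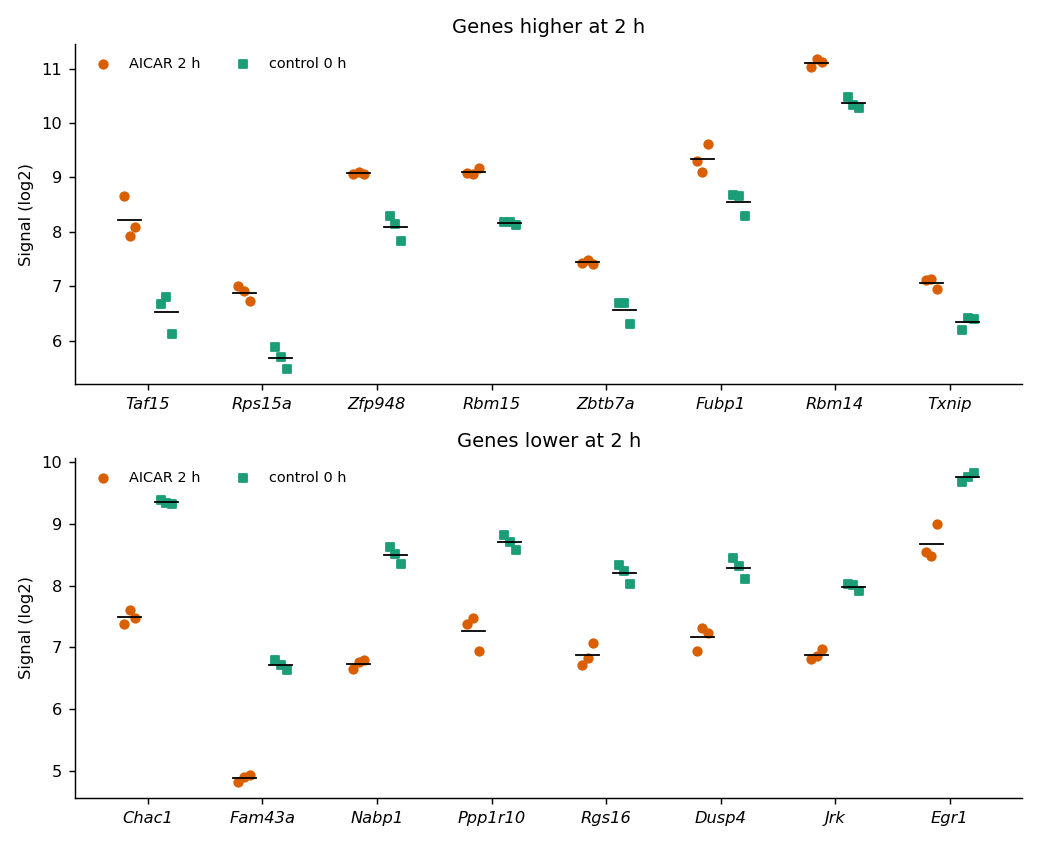
Log2 signal on each array for 8 genes called higher (upper panel) and 8 called lower (lower panel), with AICAR 2 h arrays as orange circles and control 0 h arrays as green squares. Black lines mark the mean of 3 arrays, and in all 16 genes the groups do not overlap.

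RNA-binding protein genes led the rises. Taf15 had 8.65, 7.92 and 8.09 in AICAR 2 h arrays, against 6.68, 6.80 and 6.12 in controls. Its difference of 1.69 ± 0.28 (adjusted p = 0.0042) was 3.22-fold, the largest rise of any called gene. A further Taf15 probe set was below background in both groups and was not tested. Rbm15, a subunit of the complex that writes N6-methyladenosine on RNA, had 9.07, 9.06 and 9.18 in AICAR arrays, against 8.18, 8.18 and 8.12 in controls, and differed by 0.94 ± 0.10 (adjusted p = 0.0001). Rbm14, a paraspeckle protein, had 11.03, 11.17 and 11.12 in AICAR arrays, against 10.48, 10.33 and 10.27 in controls, and differed by 0.75 ± 0.11 (adjusted p = 0.0018). All 5 of its probe sets passed, at 0.56 to 0.78. Rbm12 (0.51) and Rbm4, a splicing regulator (0.54), rose too, whereas Rbm15b, the paralog of Rbm15, fell by 0.42. The other Rbm15b probe set gave -0.08, and averaged over both Rbm15b was at -0.25 and lost the call (adjusted p = 0.28). The calls make 5 higher and 1 lower of 37 tested genes of the Rbm and other RNA-binding proteins (16.2%), with a median of 0.07. Without replicate 3 of both groups 3 rose and 0 fell, namely Taf15, Rbm14 and Rbm15.

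The m6A list, which shares Rbm15 and Rbm15b with the Rbm list, held 2 rises and 1 fall in 17 tested genes (17.6%, against 1.47% of all genes). The list had a positive difference in 14 of the 17 (median 0.19). Its other called member was Ythdf3, a cytoplasmic reader of the mark, at 10.09 ± 0.05 in AICAR 2 h arrays against 9.70 ± 0.10 in controls (SD, n = 3 each), a difference of 0.39. Of 43 tested SR proteins, hnRNPs and Clk kinases, 3 rose and 0 fell (6.98%, against 1.47% of all genes). Clk1, a kinase that phosphorylates SR proteins, had 10.38, 10.44 and 10.43 in AICAR arrays, against 10.07, 9.91 and 9.84 in controls, and rose by 0.48. Its relative Clk3 rose by 0.45. Fubp1, a single-strand nucleic acid-binding protein named for a far upstream element of Myc, rose by 0.80, to 9.34 ± 0.26 in AICAR arrays against 8.55 ± 0.22 in controls. None of the 3 was called without replicate 3 of both groups, where Fubp1 was at 0.54 and Clk1 at 0.42. Taf15 was also the only call among 18 tested TBP-associated factors, of which 15 had a positive difference.

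Some transcription factor genes rose. Zbtb7a, a BTB zinc finger repressor, had 7.43, 7.49 and 7.41 in AICAR 2 h arrays, against 6.69, 6.69 and 6.31 in controls, and differed by 0.88 ± 0.10 (adjusted p = 0.0002). Its 2 other probe sets gave 0.16 and 0.14 without passing, and with the mean of all 3 the gene was at 0.39 and did not pass. Zfp948, a zinc finger gene, had 9.06, 9.11 and 9.06 in AICAR arrays, against 8.30, 8.15 and 7.84 in controls, and rose by 0.98. Averaged over its probe sets, Zfp948 was at 0.47. Zfp51 rose by 0.66, and Lcor, a ligand-dependent corepressor, by 0.74. Zinc finger genes moved both ways. Of 293 tested genes named Zfp or Zbtb with a number, a set chosen after the values were seen, 8 rose and 13 fell (7.17%, against 1.47% of all genes), and their median was -0.02. Zfp719 fell by 1.11 and Zbtb7c by 0.39.

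Rps15a, a protein of the small ribosomal subunit, was at 7.002, 6.91 and 6.73 in AICAR 2 h arrays, against 5.89, 5.70 and 5.49 in controls, a difference of 1.19 ± 0.14 (adjusted p = 0.0002). This value rests on 1 probe set, whose control mean of 5.69 was not far above the background of 5.08. Whether that probe set reports the main Rps15a transcript was not tested. The other 52 tested cytosolic ribosomal protein genes were not called, and the median of the list was 0.0027. Txnip, an arrestin-like protein that restrains glucose uptake, had 7.11, 7.13 and 6.96 in AICAR arrays, against 6.20, 6.41 and 6.40 in controls, and rose by 0.73 ± 0.13 (adjusted p = 0.0071). Mnt, a MAX partner that opposes MYC, rose by 0.53, which makes 2 higher and 0 lower of 14 genes of the Txnip and MondoA list. The median of that list was 0.01. The other Mnt probe set gave -0.05, and the average of both was 0.24, past the threshold no longer (adjusted p = 0.094). Arrdc4, an arrestin-domain relative of Txnip, was at 0.16 and not called, a value looked at after the results were seen. Txnip lost its call without control replicate 1, and its other probe set gave 0.16. Sik3, an AMPK-related kinase, rose by 0.36, the only call among 11. Fnip1, the folliculin partner that binds AMPK, rose by 0.29, the only call among 14 genes of the folliculin and TFEB list. Skil, a SMAD corepressor, rose by 0.35. Cenpl, a centromere protein, rose by 0.75, and Cep295nl and Disp1 were below background on all 3 controls, so their levels were at least 1.94-fold and 1.47-fold higher after AICAR.

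Several lists of metabolism and growth held no call. These were the AMPK subunits and upstream kinases (13 tested), AICAR and adenosine handling (20), purine and pyrimidine synthesis (23), folate and serine metabolism (18), autophagy and lysosome (26), mTORC1 signalling (18), cholesterol synthesis (17), fatty acid metabolism (19), the respiratory chain (27) and the proteasome (28). Heat shock genes (15), the unfolded protein response (19), NRF2 targets (19), interferon-stimulated genes (19), DNA replication (29) and ribosome biogenesis (27) also held 0 calls. Over all 28 lists without a call, limma gave an unadjusted p under 0.05 for 26 higher and 35 lower of 535 genes (11.4%), against 10.3% of all tested genes. The share ran from 0.0% to 44.0% between lists. It was highest in the ubiquitin ligases and deubiquitinases of signalling, with 5 higher and 6 lower of 25 genes, followed by the BCL2 family (38.5%), O-GlcNAc cycling (2 higher and 0 lower of 8) and cholesterol synthesis, where 0 were higher and 4 lower of 17 (23.5%). Of 32 tested G2/M genes, 27 had a positive difference, with a median of 0.07. Hmmr, a spindle-associated protein, was at 0.29 (adjusted p = 0.11). All 10 tested histone genes had a negative difference (median -0.05). A p above the threshold does not show that these genes stayed the same. In the simulation of this comparison, 98 of 100 genes changed by 1 and 65 of 100 changed by 0.5 were recovered. The simulated noise was drawn independently for each gene and array, without array-wide shifts, so these rates need not hold for the measured arrays.

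Of the 74 called genes named by the rule, 37 lost the call when at least 1 of the 6 arrays was left out, while the difference of any of the 74 moved by at most 0.296 (Disp1) and by a median of 0.0698. Dusp1, Klf2, Pfkfb3, Plk2, Rgs2 and Zfp36l2 lost it without any of the 6 arrays. Adm (-0.83 to -0.47 without 1 array), Cebpb (-0.57 to -0.40), Ier5l (-0.78 to -0.63), Neat1 (-1.21 to -0.97), Nupr1 (-0.55 to -0.38), Rbm15b (-0.47 to -0.36) and Zfp719 (-1.27 to -0.98) lost it without any of 5 arrays. Among the rises this held for Cep295nl and Disp1, whose controls were below background, and for Fnip1 (0.23 to 0.34) and Rbm4 (0.46 to 0.63). The call depended on 4 or fewer arrays for others, among them Cxcl1, F3 (-0.54 to -0.41), Foxc2 (-0.76 to -0.56), Bcl6 (-1.28 to -1.08), Mnt (0.49 to 0.59), Skil (0.28 to 0.39), Sik3 (0.32 to 0.41), Clk1 (0.43 to 0.54), Clk3 (0.41 to 0.48) and Zc3h12c (0.72 to 0.95). Chac1, Ddit3, Fosl2, Egr1, Myc, Dusp4, Dusp6, Tnfaip3, Nabp1, Ppp1r10, Fam43a, Rgs16, Jrk, Taf15, Rbm14, Rbm15, Rps15a and Zbtb7a kept the call without each of the 6.

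The chosen probe set did not always speak for the gene. Among called genes with several tested probe sets, all had the same direction in 23 of 33 higher and 31 of 43 lower genes. Of the named called genes, 19 lost the call in the fit that averaged the probe sets of each gene. Beside those given above, these were Cebpb (-0.28), Pfkfb3 (-0.26), Rgs3 (-0.38), Zbtb7c (-0.23), Zfp719 (-0.60), Rbm12 (0.38), Fubp1 (0.66), Lcor (0.51), Fnip1 (0.50), Klf2 and Disp1. Klf2 and Disp1 have 1 probe set each, so their differences did not move. Their limma adjusted p rose to 0.055 and 0.051 in this fit of 12308 genes. All probe sets passed the threshold in 1 of the 33, Rbm14, and in 8 of the 43. When each probe set was tested on its own, 237 of 20458 (1.16%) were called, and 65 of these belonged to 62 genes not called above. The clearest case was Lats2, a kinase of the Hippo pathway. Its probe set 1425420 had 8.59, 8.55 and 8.05 in AICAR 2 h arrays, against 6.34, 6.42 and 6.12 in controls, a difference of 2.10 ± 0.23 (adjusted p = 0.0005), and probe set 1426156 gave 1.53. The Lats2 probe set with the highest mean gave -0.30 ± 0.15 and was not called, with 7.90 ± 0.10 in AICAR arrays against 8.21 ± 0.07 in controls (SD, n = 3 each). Another Lats2 probe set gave -0.08. For Lats1, its paralog, the probe sets gave 0.16 and 0.68, and neither was called. Positions of probe sets within transcripts were not used here.

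The call count lay between those at 1 h and 4 h. At 1 h 62 genes (0.479%) were called, 1 higher (0.00773%) and 61 lower (0.471%), and at 4 h 1564 (12.1%), 671 higher (5.18%) and 893 lower (6.9%), against the same 3 controls, so these counts share samples with the 2 h comparison. The difference between times was tested directly. Between AICAR 2 h and AICAR 1 h, 94 genes were called (0.726%), 86 higher at 2 h (0.664%) and 8 lower (0.0618%). Replicate 3 of AICAR 1 h had a maximum of 13.15, against 13.44 and 13.46 in replicates 1 and 2. The 53 tested cytosolic ribosomal protein genes had a median of -0.11 at 1 h and 0.0027 at 2 h. Whether that array bears on the direction of the calls at 1 h, or of those between 1 h and 2 h, was not tested. Of the 61 genes called higher at 2 h, 25 were also higher at 2 h than at 1 h, and 0 were lower. Of the 129 called lower, 8 were lower at 2 h than at 1 h: Ppp1r10, Jrk, Fam43a, Myc, Tbcc, Jmjd4, Dolk and Tmem177. The last 4 of these lie outside the naming rule. The rises at 2 h had a median of 0.15 at 1 h, while the falls had a median of -0.38 at 1 h. Both medians used the genes chosen at 2 h and serve as a description.

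Single genes followed different courses. Zfp948 was at -0.30 at 1 h and 0.98 at 2 h against the control, and the difference between the times, 1.28, passed the test (adjusted p = 0.001). Zbtb7a was at -0.05 at 1 h and 0.88 at 2 h, and Txnip at -0.02 and 0.73, with both steps past the threshold. Jrk stood at -0.25 at 1 h and -1.10 at 2 h, and Myc at -0.08 and -0.71. In contrast, Rgs16 was at -1.27 at 1 h and -1.32 at 2 h, Gadd45b at -1.13 and -1.01, and Dusp6 at -0.93 and -0.99, with steps of -0.05, 0.13 and -0.06 that did not pass.

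Between AICAR 4 h and AICAR 2 h, 368 genes were called (2.84%), 181 higher at 4 h (1.4%) and 187 lower (1.44%). Of the genes called higher at 2 h, 8 rose further by 4 h, among them Rbm15, by 0.47, Rbm4, by 0.63, and Fnip1, by 0.60. A return towards the control level was called in 4, namely Disp1, Mir22hg, Mnt and Clk1, with Mnt at 0.02 and Clk1 at 0.01 against the control at 4 h. Of the genes called lower at 2 h, 9 fell further, among them Ppp1r10, which reached -2.36 at 4 h, and Slc7a1, which reached -0.86. A further 8 turned back, among them Egr1, at -0.23 at 4 h, Errfi1, at -0.28, Bhlhe40, at -0.24, and Klf2, at 0.47. At 24 h Egr1 was at 1.44 and Malat1 at 1.46, while Dusp6 was at -1.63, Gadd45g at -1.84 and Txnip at 2.32.

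**Figure D4:**
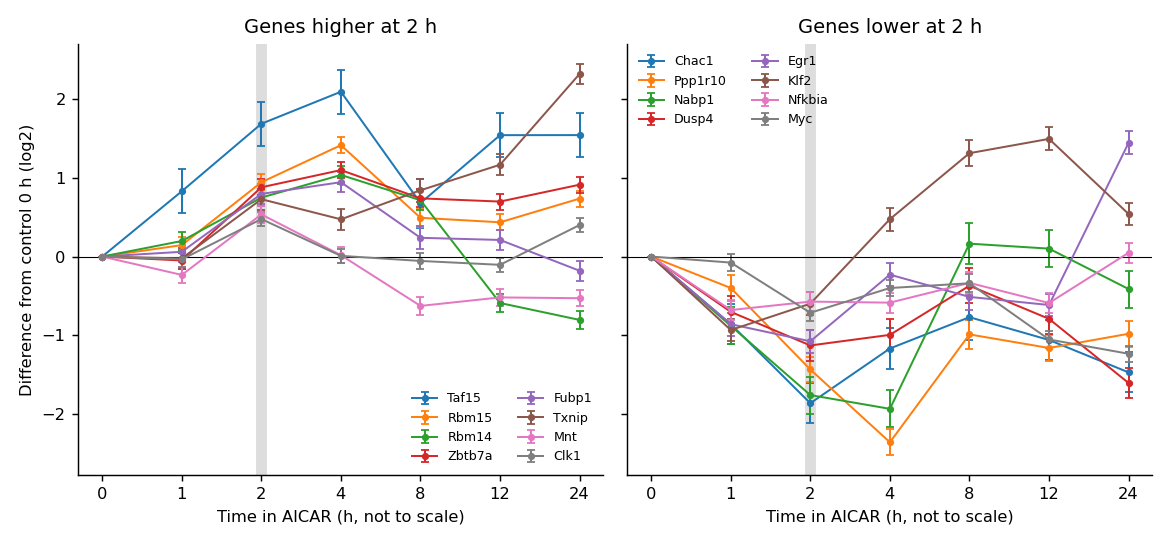
Difference from control 0 h (log2, mean of the arrays at each time, bars are the SE of the fit) over hours in AICAR for 8 genes called higher (left) and 8 called lower (right) at 2 h, which is shaded. Taf15 and Rbm15 peak at 4 h, Mnt and Clk1 are near 0 at 4 h, and Ppp1r10 is lowest at 4 h at -2.36.

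The called lower genes were short. In the RefSeq annotation (GRCm38.p6) the span from gene start to gene end had a median of 6.51 kb in the 129 lower genes, 24.4 kb in the 61 higher genes and 21.7 kb in all tested genes. Spans under 5 kb were found in 41.1% of the lower genes (53 of 129), 3.28% of the higher genes (2 of 61) and 14.2% of all tested genes. Among the genes named above, Ier5l spans 1.57 kb, Cebpd 2.26 kb, Fam43a and Chac1 3.08 kb each and Egr1 3.75 kb, against 28.9 kb for Rbm15 and 33.7 kb for Taf15. Txnip, at 3.9 kb, is 1 of the 2 short genes that rose. By class, the share of genes called lower was 3.22% under 2 kb, 2.76% from 2 to 5 kb, 1.26% from 5 to 10 kb and 0.305% at 100 kb or more. The share called higher was 0.0% under 2 kb, 0.149% from 2 to 5 kb and 0.736% from 10 to 20 kb.

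The called lower genes had the shorter median span in each alternative run. Over 21 other settings the median was 5.069 to 10.99 kb for lower genes and 11.77 to 33.7 kb for higher genes, the lowest of these from settings with 3 and 9 higher genes. The higher genes lay on either side of the 21.7 kb of all tested genes, at 33.4 kb with quantile normalization, 17.9 kb after median centring and 17.4 kb in the 6 arrays alone. The genes called lower at 1 h had a median of 8.36 kb, and at 4 h the medians were 11.6 kb for lower and 27.9 kb for higher genes. Over all tested genes, the median difference at 2 h went with span only slightly, at -0.03 under 2 kb and 0.04 at 100 kb or more. The median control signal also differed between classes, at 5.88 under 2 kb and 7.73 from 20 to 50 kb. No test was made of span, since genes that share pathways are not independent.

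**Figure D5:**
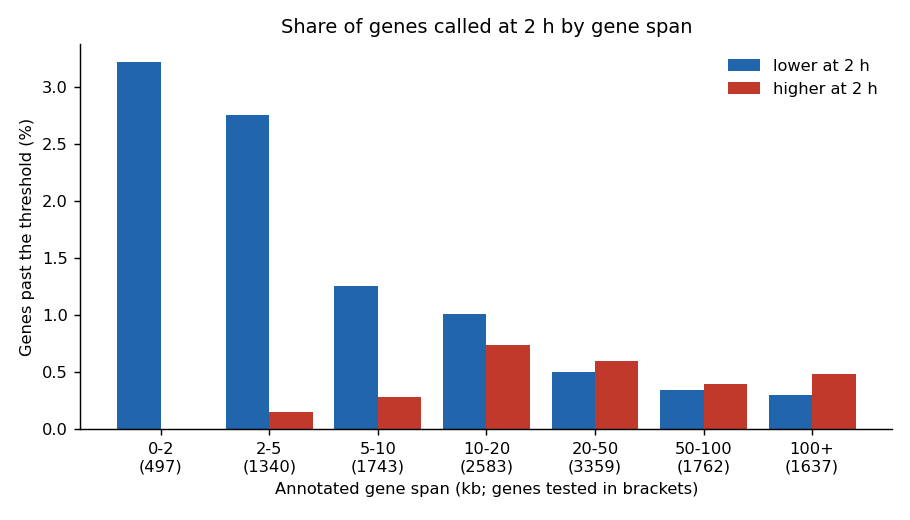
Percentage of tested genes called lower (blue) and higher (red) at 2 h in classes of annotated gene span (kb, number of genes tested in brackets). The share called lower is 3.22% in the shortest class and 0.305% in the longest, and 0 of the shortest genes were called higher.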

How the data were processed

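Total RNA of 20 samples was labelled with biotin, per the labels' protocols, and measured on Affymetrix MG-430 PM arrays. The deposited table holds 1 signal per probe set and array for 45141 probe sets. The values are taken as log2, since the largest deposited value, 13.5, is too high for a natural log of 16-bit scanner output (at most 11.09) and possible for log2. Background correction, summarisation and normalization are not stated in the labels, and the values were used as deposited. Precision is limited by the number of arrays.

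The 104 array control probe sets were left out. The platform annotation gives 1 symbol for 28898 probe sets, several for 551 and none listed for 15692, and symbols of 28689 were updated through GRCm38.p6 gene identifiers. The probe set with the highest mean stood for each of 17097 genes, and 4153 genes with no group mean above 4.81 (40th percentile) were left out. Contrasts were fitted with limma 3.58.1 (R 4.3.3) by lmFit and eBayes over 20 arrays in 7 groups, with 13 residual degrees of freedom, two-sided, with Benjamini-Hochberg adjustment over 12944 genes and a threshold of 0.05. The p-values measure the spread between arrays, which may be technical.

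The gene lists (61, of which 6 are marker lists) and the genes compared were chosen with earlier results of these data known. Named genes are the 15 largest rises and falls past the threshold without overlap between arrays (clone-named loci skipped), up to 5 called members of each list, otherwise the 2 with the largest t, and Prkaa1, Prkaa2, Lats1, Lats2, Txnip, Adk, Taf15, Ppp1r10, Nabp1, Runx1 and Chac1. The text names a selection. Runx1, fixed for naming, was at -0.96 and not called (adjusted p = 0.065). Other genes are marked as chosen after their values were seen. In a check on data simulated with independent noise from the real means and spreads of 12944 genes, 11 of 174 called genes had not been changed. Gene spans and promoters are from RefSeq (GRCm38.p6). Figures were drawn with matplotlib 3.10.9 in Python 3.11.15.

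Alternatives were quantile normalization, median centring, other filters, other probe set rules, other variance settings, array weights, a replicate block, the interquartile range as a covariate, the 6 arrays alone, stricter thresholds and leaving out each array. Leaving out replicate 3 of both groups was added after the data were seen.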

Additional observations from a re-analysis of the deposited data

Results flagged for a closer look

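Tests of the difference itself set the 2 h response against the 1 h and 4 h responses to the same controls, and 30 differences among the 74 called genes named by the rule were past the threshold, 17 between 2 h and 1 h and 13 between 4 h and 2 h (limma contrasts between the AICAR groups, adjusted p under 0.05).

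Between AICAR 2 h and AICAR 1 h, the higher genes at 2 h were Zfp948 (1.28 on the log2 scale), Zbtb7a (0.93), Rbm15 (0.80), Mnt (0.77), Cenpl (0.76), Txnip (0.75), Fubp1 (0.73), Zfp51 (0.71), Rbm14 (0.55), Clk1 (0.51), Clk3 (0.47), Skil (0.40) and Fnip1 (0.37). The lower genes at 2 h were Ppp1r10 (-1.03), Jrk (-0.85), Fam43a (-0.82) and Myc (-0.64). All 3 AICAR 2 h arrays of Fam43a were below background, so its measured difference is no exact size. The 1 h group was not examined with arrays left out in these differences, and its replicate 3 had the lowest maximum of all 20 arrays (13.15).

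Between AICAR 4 h and AICAR 2 h, genes that were high at 2 h went further in Rbm4 (0.63), Fnip1 (0.60) and Rbm15 (0.47) and came back in Disp1 (-0.93), Mir22hg (-0.61), Mnt (-0.52) and Clk1 (-0.47). The measured value of Disp1 is no exact size, since its 4 h mean of 4.71 was below background. Genes that were low at 2 h went further in Ppp1r10 (-0.92) and Slc7a1 (-0.35) and came back in Klf2 (1.07), Egr1 (0.85), Errfi1 (0.54) and Bhlhe40 (0.44). The 4 h group was not examined with arrays left out in these differences.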

How the results depend on the processing

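The count of 190 called genes (61 higher, 129 lower) depended on the processing. It was 355 (148 higher, 207 lower) with quantile normalization, 1020 (363 and 657) with array weights, 618 (299 and 319) with the interquartile range as a covariate, 71 (27 and 44) at an adjusted p under 0.01 and 21 (3 and 18) with at least 2-fold change added. With each probe set on its own 101 were higher and 136 lower, 38 were higher in the 6 arrays alone, and 30 were higher after median centring. Leaving out 1 array gave 78 to 132 calls, with 26 to 40 higher and 44 to 106 lower. By array, the counts were 78, 102 and 109 without AICAR 2 h replicates 1, 2 and 3 and 82, 78 and 132 without control replicates 1, 2 and 3. Without replicate 3 of both groups 61 were called (9 higher, 52 lower), 60 of them among the 190. Other settings, apart from the replicate block given below, stayed within 1.5 times the reported counts, and the cause of these shifts was not tested.

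With the replicate number as a block (replicate block), 386 genes were called (156 higher, 230 lower). Same-numbered arrays correlated at 0.0456, 0.353 and 0.5 in their deviations from the group means, so not all exceeded 0.1 and the numbers were not treated as pairs, and AICAR 2 h replicates 1 and 2 correlated best with control replicates 2 and 1.

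Of 74 named called genes, 37 kept the call with each array left out, 54 passed with the mean of all probe sets (19 did not, and Rgs2 was not tested), 42 passed 0.01 and 0 changed direction. Averaging leaves the values of a gene with 1 probe set unchanged, so it does not check such genes. The only reversal was Lats2, at 0.66 with the mean of its probe sets (adjusted p = 0.006) against -0.30 as reported, 2 of its probe sets being called higher.

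The precision is limited by 3 arrays a group. Of the called lower genes 13 had an AICAR 2 h mean below background, and in 10 all 3 AICAR 2 h arrays were, in 3 of them together with all 3 controls. Of these, Fam43a and Ier5 are given a fold as a lower bound, and Rgs2 is given no fold.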

Other observations

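Probe sets outside the gene summary gave further rises. Of the 65 called probe sets of genes not called, 46 were higher and 19 lower at 2 h, and for 25 the gene's own probe set had the opposite sign. Beside Lats2, a probe set of Fem1b (1418323), a substrate receptor of a ubiquitin ligase, had 8.37, 8.29 and 7.91 in AICAR 2 h arrays, against 6.76, 6.89 and 6.31 in controls, a difference of 1.53 ± 0.24 (SE; limma adjusted p = 0.0037). The Fem1b probe set with the highest mean was at -0.58 and not called (adjusted p = 0.081). Tardbp, which encodes TDP-43, differed by 0.88 in 1 probe set and by -0.02 in the probe set with the highest mean, which stands for the gene. Elavl1, the AU-rich element binding protein HuR, differed by 0.54 against 0.15 in the gene's own probe set, Luc7l, a splicing factor relative, by 0.53 against -0.34, and Hnrnpa3 by 0.43 against -0.04. Asxl1, a Polycomb-associated chromatin protein, differed by 0.97 against -0.38 and Myef2 by 1.30 against 0.08. Among the lower ones Rsrp1 differed by -1.01 against 0.08 and Sox11, a developmental transcription factor, by -0.95 against -0.37. None of the genes' own probe sets was called. These genes were chosen after their values were seen.

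Further called genes with smaller rises are given singly. Wapl, the factor that releases cohesin, rose by 0.63, Pds5b, its partner, by 0.38, and Kif18a, a kinesin of chromosome alignment, by 0.56. The histone demethylase gene Kdm6a (0.52), Jmjd1c, a JmjC-domain protein (0.40), the pre-mRNA kinase Prpf4b (0.51), the splicing-associated Pnn (0.43) and the transcript termination factor Pcf11 (0.54) rose too. All were chosen after their values were seen, so no share is drawn from them.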
